A study of Mus musculus with 9 samples.

Results

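The EGR and NR4A early transcription factors, with their NAB corepressors and serum response factor, were followed in RAW264.7 cells, a mouse macrophage-like line. The set was chosen by gene symbol and holds 9 genes, Egr1, Egr2, Egr3, Nab1, Nab2, Nr4a1, Nr4a2, Nr4a3 and Srf, of the 53170 distinct gene names in the deposited table. All 9 were found, and 8 passed the filter of a mean of at least 0.5 FPKM (a level scaled for gene length and library depth) over all 9 libraries, the exception being Nr4a3. Polyadenylated RNA was sequenced from 3 groups of 3 libraries, all wild type by the labels and grown in serum-containing αMEM medium. They were a blank control, cells cultured on a membrane that the labels call BMC without spelling it out, and cells on that membrane stimulated by low-intensity pulsed ultrasound (BMC+LIPUS). The sources used here give neither the time in culture nor the ultrasound settings. No group had ultrasound without the membrane, and no label ties the 3 libraries of any group to separate cultures, so a p-value here reflects the spread among libraries, possibly only technical.

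EGR proteins are zinc finger transcription factors whose genes are switched on within minutes by growth factors, stress and adhesion, largely through serum response factor (SRF) and its ETS partners bound at CArG boxes in their promoters. NAB1 and NAB2 bind EGR proteins and repress them, and Nab2 is itself an EGR target, which closes a feedback loop. NR4A proteins are orphan nuclear receptors that are regulated mostly by how much of them is made, and their genes respond to cAMP and calcium through CREB and MEF2. In macrophages, EGR2 is used as a marker of alternative activation and NR4A receptors are known as brakes on inflammatory gene expression.

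Promoter windows of RefSeq (build GRCm38.p6, 250 bases before to 50 after each start site, printed on the gene's strand) were used for 7 of the 9 genes. They were matched by symbol, with the windows of a single chromosome left out, and none was used for Egr1 or Egr3. The files' counts were made on another build, GRCm39, so these coordinates belong to the RefSeq table only. The 3 NR4A windows are shown because their genes had the largest fitted log2 differences in BMC+LIPUS against BMC among the 9, with capitals marking each TGACG, the core of the cAMP response element, on either strand. Each window holds 4 matches. At least 1 match was found in 20.8% of the 32851 windows in the table, and 4 or more in 0.231%. The cutoff of 4 equals the count in these windows, and base composition was not matched, so the share is a description and tests nothing. The full element TGACGTCA, which contains the core, is in none of the 3 and in 1.79% of all windows.
Nr4a1, chr15:101266596-101266895, plus strand: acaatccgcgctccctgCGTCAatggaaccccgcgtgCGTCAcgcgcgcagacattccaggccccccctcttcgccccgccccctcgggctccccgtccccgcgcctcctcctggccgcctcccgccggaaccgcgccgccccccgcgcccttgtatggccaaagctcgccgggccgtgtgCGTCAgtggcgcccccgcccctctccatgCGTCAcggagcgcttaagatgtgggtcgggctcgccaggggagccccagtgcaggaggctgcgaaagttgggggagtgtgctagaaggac
Nr4a2, chr2:57123954-57124253, minus strand: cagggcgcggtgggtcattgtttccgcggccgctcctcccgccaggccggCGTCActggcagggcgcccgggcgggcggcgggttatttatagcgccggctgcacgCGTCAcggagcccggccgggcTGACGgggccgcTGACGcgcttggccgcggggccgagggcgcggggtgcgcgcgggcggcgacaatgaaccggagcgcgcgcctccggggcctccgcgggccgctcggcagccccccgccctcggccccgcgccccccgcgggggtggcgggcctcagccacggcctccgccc
Nr4a3, chr4:48045055-48045354, plus strand: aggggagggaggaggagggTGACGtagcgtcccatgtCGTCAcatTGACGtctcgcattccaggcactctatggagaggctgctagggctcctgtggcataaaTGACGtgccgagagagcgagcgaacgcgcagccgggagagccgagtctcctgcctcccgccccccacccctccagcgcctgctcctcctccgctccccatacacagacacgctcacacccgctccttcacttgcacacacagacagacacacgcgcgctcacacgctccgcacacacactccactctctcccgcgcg

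The windows of Egr2 and Srf are shown for their CArG boxes, the SRF site, in capitals. A CArG box on either strand was in 1.63% of all windows, and 2 or more in 0.0183%, a cutoff equal to the count in the Srf window. The Srf window holds 2 and that of Egr2 holds 1. RefSeq lists 5 start sites for Egr2, and the window shown is 1 of 3 tied for the most matches over all motifs searched. Of the 5 windows 4 hold a CArG box, but the 3 tied windows overlap and share the same box. This Egr2 window also holds 2 TGACG cores, Srf and Nab1 1 each.
Egr2, chr10:67537619-67537918, plus strand: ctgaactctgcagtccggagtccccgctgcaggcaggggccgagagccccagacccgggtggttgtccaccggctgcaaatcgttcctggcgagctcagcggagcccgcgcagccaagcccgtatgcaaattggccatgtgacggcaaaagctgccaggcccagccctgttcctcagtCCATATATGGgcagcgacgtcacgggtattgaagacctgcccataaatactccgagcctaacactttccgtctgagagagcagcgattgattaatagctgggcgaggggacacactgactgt
Srf, chr17:46556113-46556412, minus strand: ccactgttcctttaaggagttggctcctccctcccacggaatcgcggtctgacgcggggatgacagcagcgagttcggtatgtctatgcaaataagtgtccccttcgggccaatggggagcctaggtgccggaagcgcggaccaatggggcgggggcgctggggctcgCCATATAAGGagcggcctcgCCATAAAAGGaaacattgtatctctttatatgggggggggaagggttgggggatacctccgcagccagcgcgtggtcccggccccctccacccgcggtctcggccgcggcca

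Nab1 is shown for its matches to GCGTGGGCG, the EGR recognition site, in capitals. It holds 2, one on each strand. At least 1 was in 0.612% of all windows and 2 or more in 0.0213%, a cutoff equal to its own count. None of these motifs, nor the NR4A site AAAGGTCA (1.51% of windows), was matched in the Nab2 window, and AAAGGTCA was matched in no member's window. A match describes letters in a window and is not evidence of binding.
Nab1, chr1:52500399-52500698, minus strand: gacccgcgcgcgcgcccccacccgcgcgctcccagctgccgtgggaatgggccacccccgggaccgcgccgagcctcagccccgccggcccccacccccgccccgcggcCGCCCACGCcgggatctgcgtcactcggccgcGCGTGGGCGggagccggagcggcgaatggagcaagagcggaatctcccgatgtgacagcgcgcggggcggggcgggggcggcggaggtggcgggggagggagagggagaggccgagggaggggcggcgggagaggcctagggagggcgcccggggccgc

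The libraries held 12675417 to 16574322 counts over named genes, and mitochondrial genes took 3.46% to 4.05% of them. Of 10 macrophage markers 9 passed the filter, and their summed level was 6597 to 7376 FPKM in control, 7233 to 7983 in BMC and 7425 to 7672 in BMC+LIPUS. Csf1r, the CSF1 receptor, stood at 365 ± 11.8, 360 ± 9.0 and 380 ± 15.9 FPKM (SD, n = 3) in that order, and the exception, the efferocytosis receptor Mertk, at 0.0133, 0.0633 and 0.10. On the membrane, of the 9 markers 3 rose, including Cd14 at 1.73-fold and Spi1 at 1.27-fold, and 2 fell, Ptprc at 1.20-fold and Cd68 at 1.16-fold lower. Markers of other cell types were near 0. Of 7 fibroblast and stromal markers 5 had no count, their sum was 0.570 to 0.650 FPKM in control, 0.910 to 1.45 in BMC and 1.22 to 1.45 in BMC+LIPUS, and Pdgfrb rose 2.06-fold on the membrane. Of 7 granulocyte and mast cell markers 4 had no count, their sums were 0.280 to 1.30, 0.310 to 1.44 and 0.190 to 0.310 FPKM, and the tested one, S100a8, was not called. Of 7 T and B lymphocyte and 7 epithelial and endothelial markers none passed the filter, and no library's sum exceeded 0.360 and 0.0600 FPKM. Whether these markers bear on the genes below was not tested. In bulk RNA, a change in the share of cells that express a gene and a change of RNA per cell cannot be told apart.

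In control the 9 genes spanned a wide range of levels per length. Nab1 led at 26.8 ± 0.665 FPKM, followed by Srf at 22.2 ± 2.41, Nab2 at 15.3 ± 0.355 and Egr2 at 4.11 ± 1.26 (SD, n = 3). Nr4a1, Egr1 and Egr3 came next at 1.65 ± 0.132, 1.28 ± 0.442 and 1.23 ± 0.351 FPKM, and neighbours among these 3 overlapped. Nr4a2 stood at 0.793 ± 0.151 and Nr4a3 last at 0.0167 ± 0.0115 FPKM. On the membrane Nab2 (34.8 ± 1.89 FPKM) just reached the range of Nab1 (37.5 ± 0.785), by 36.61 against 36.59 FPKM. With ultrasound Nab2 (39.3 ± 0.199) lay above Nab1 (37.0 ± 2.11) with ranges apart only by 39.11 against 39.06 FPKM. Egr2, at 24.6 ± 0.662 FPKM with ultrasound, then overlapped Srf at 27.4 ± 3.18. Nr4a1, Egr3 and Nr4a2 overlapped as neighbours there, at 2.43 ± 0.131, 2.21 ± 0.207 and 2.18 ± 0.105 FPKM. Nr4a3 stayed lowest in all 3 groups.

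**Figure D1:**
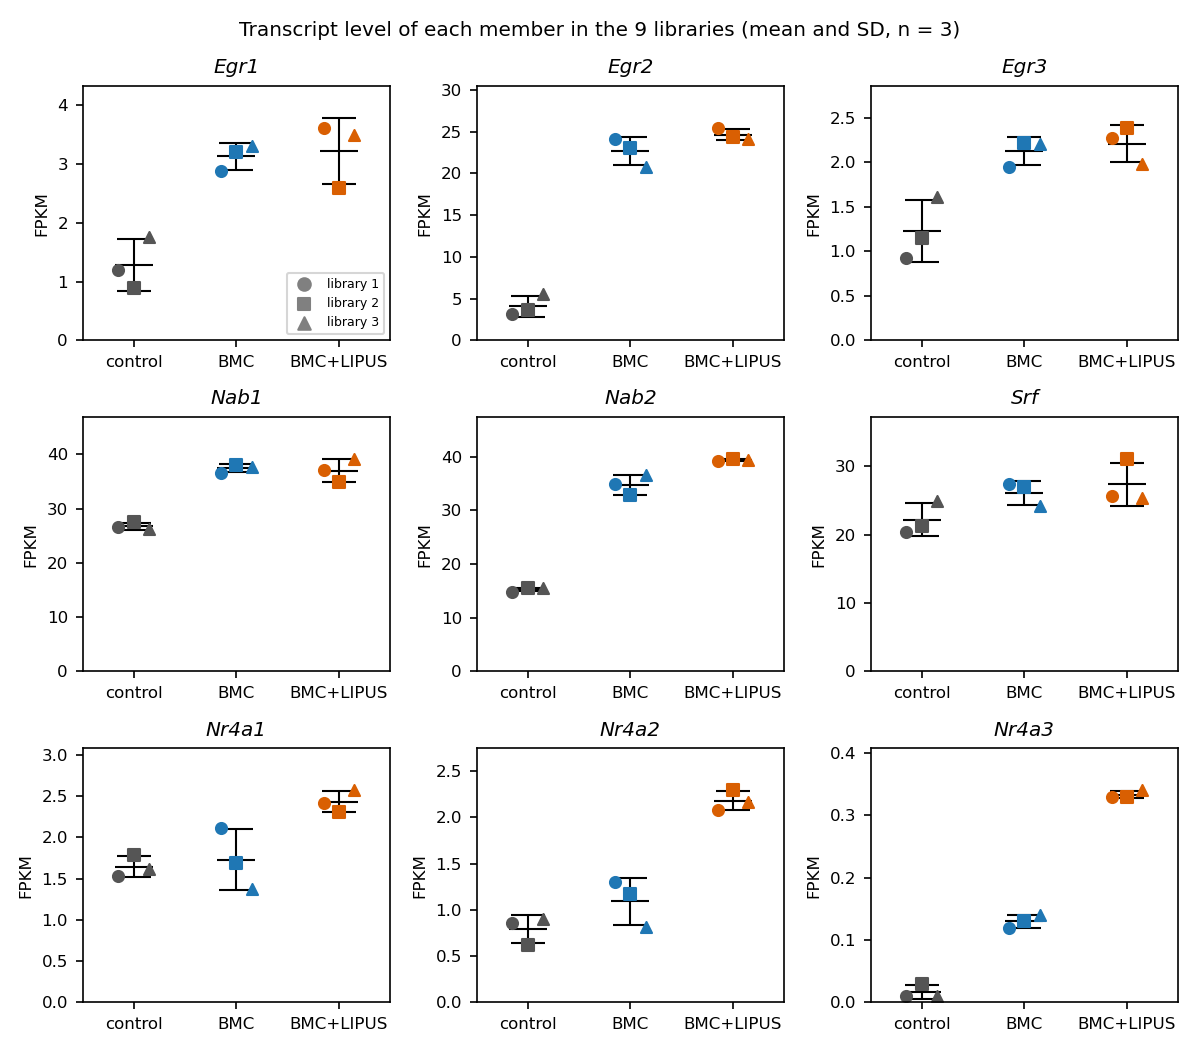
FPKM (y axis, from 0) of each of the 9 genes in the 3 control, 3 BMC and 3 BMC+LIPUS libraries; symbols are single libraries, horizontal bars the mean and whiskers the SD (n = 3). Egr2 lies at 3.15 to 5.54 in control and at 20.83 or more in all 6 membrane libraries, and Nr4a2 at 2.08 to 2.29 with ultrasound, against 1.30 at most in the other 6 libraries.

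BMC was set against control to ask what the membrane does without ultrasound. Of the 8 genes tested 6 rose and 0 fell by edgeR at an adjusted p under 0.05, where 17.2% of 12012 genes were called higher, 18.8% lower and 35.9% in either direction. At an unadjusted p under 0.05, 7 of the 8 were higher, against 22.0% of genes. The genes that rose were the 3 EGR factors, both NAB corepressors and Srf. The median log2 change of the 8 was 0.71, against 0.01 over all genes tested. In 6 of the 9 genes all BMC libraries lay above all control libraries, which held for 17.1% of genes tested, and 29.4% lay apart in the other direction. Nr4a3 is among the 6 but not among the genes tested. The split of calls over all genes depended on the scaling, with 2065 higher and 2253 lower by edgeR, 1459 and 2762 with library totals and 1222 and 2503 by limma on log2(FPKM + 1).

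Egr2 carried most of the EGR transcript and rose most. It read 3.15, 3.64 and 5.54 FPKM in the control libraries, 24.14, 23.05 and 20.83 in BMC and 25.40, 24.36 and 24.17 with ultrasound. Every membrane library lay far above every control. The rise was 5.79-fold in BMC (log2 change 2.53, SE 0.14, edgeR adjusted p = 2.08e-09) and 6.33-fold in BMC+LIPUS against the same controls (adjusted p = 5.84e-10 by edgeR). Among the 12012 genes, 29 had a log2 change at least that large in BMC against control, Egr2 included. The share of Egr2 in the summed FPKM of Egr1, Egr2 and Egr3 was 59.9% to 64.1% in control and 79.1% to 83.4% over the 6 membrane libraries.

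Egr1, the prototype immediate early gene of the family, read 1.19, 0.89 and 1.76 FPKM in control, 2.87, 3.20 and 3.30 in BMC and 3.60, 2.58 and 3.48 with ultrasound. It rose 2.58-fold on the membrane (log2 change 1.37, SE 0.20, edgeR adjusted p = 7.30e-05). Egr3, which shares the EGR site and acts in lymphocyte and muscle spindle development, read 0.92, 1.15 and 1.61 FPKM in control, 1.95, 2.22 and 2.21 in BMC and 2.27, 2.38 and 1.98 with ultrasound. It rose 1.82-fold (log2 change 0.86, SE 0.18, edgeR adjusted p = 0.00149). Control library 3 was the highest control for all 3 EGR genes, and the groups still did not overlap. The calls of Egr1, Egr2 and Egr3 held in every alternative that tested them, including without any single library. Egr4, the fourth family member, and the related zinc finger gene Wt1 were listed at 0 FPKM in all libraries.

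The corepressors rose with the EGR factors and varied least of the 9 between control libraries. Nab2 read 14.86, 15.47 and 15.48 FPKM in control and 34.85, 32.83 and 36.61 in BMC. That was a 2.38-fold rise (log2 change 1.25, SE 0.06, edgeR adjusted p = 1.59e-09). Nab1 read 26.64, 27.49 and 26.18 FPKM in control, 36.59, 38.12 and 37.66 in BMC and 37.11, 34.84 and 39.06 with ultrasound, a 1.46-fold rise in BMC (log2 change 0.55, SE 0.06, edgeR adjusted p = 5.36e-06). The ratio of Nab2 to Nab1 FPKM was 0.558 to 0.591 in control, 0.861 to 0.972 in BMC and 1.01 to 1.13 in BMC+LIPUS, without overlap. The ratio of Egr2 to Nab2 FPKM was 0.212 to 0.358 in control, 0.569 to 0.702 in BMC and 0.613 to 0.649 in BMC+LIPUS, so both membrane groups lay above control and overlapped each other.

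Srf, whose protein binds the CArG boxes shown above, changed least among the genes called. It read 20.35, 21.33 and 24.92 FPKM in control, 27.40, 26.96 and 24.17 in BMC and 25.68, 31.03 and 25.37 with ultrasound. The BMC and control libraries overlapped, since BMC library 3 lay below control library 3. The rise was 1.23-fold in BMC (log2 change 0.30, SE 0.09, edgeR adjusted p = 0.0142). The call was lost with library totals (adjusted p = 0.0551 by edgeR), in limma on log2(FPKM + 1) and log2(FPKM + 0.1) (adjusted p = 0.120 and 0.138), and without control library 1, control library 2 or BMC library 2 (adjusted p = 0.0795, 0.0583 and 0.0566 by edgeR). Srf rose 1.29-fold in BMC+LIPUS against control (edgeR adjusted p = 0.00309), and limma on log2(FPKM + 1) and log2(FPKM + 0.1) gave adjusted p of 0.0520 and 0.0639.

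**Figure D2:**
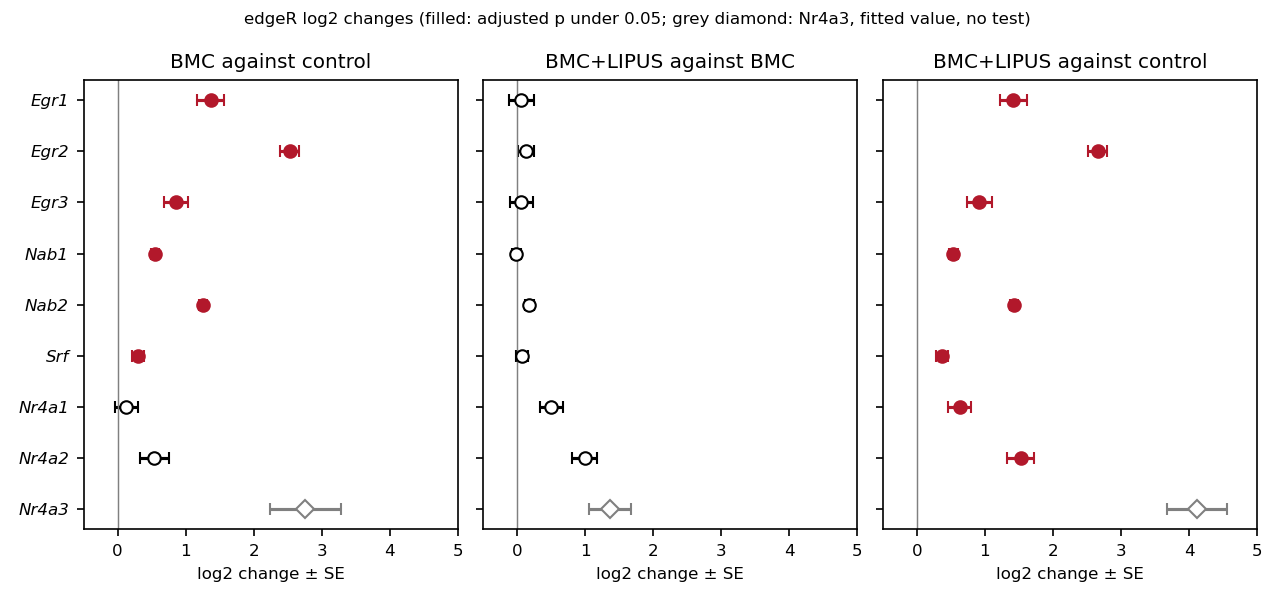
Fitted log2 change (x axis) of each gene in the 3 comparisons, with bars of 1 SE; filled symbols had an edgeR adjusted p under 0.05, and the grey diamond marks the fitted value of Nr4a3, which is given no test. EGR and NAB genes sit between 0.55 and 2.53 in BMC against control and between -0.01 and 0.18 in BMC+LIPUS against BMC, where the NR4A genes sit at 0.50, 0.99 and 1.36.

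The NR4A genes were low, and their highest values were in the ultrasound group. Nr4a1 (Nur77) read 1.53, 1.79 and 1.62 FPKM in control, 2.12, 1.69 and 1.38 in BMC and 2.42, 2.31 and 2.57 with ultrasound. The BMC libraries straddled the control range, and every BMC+LIPUS library lay above both other groups. The log2 change of Nr4a1 was 0.13 in BMC against control (SE 0.17, edgeR adjusted p = 0.591) and 0.63 in BMC+LIPUS against control, a 1.55-fold rise (SE 0.17, edgeR adjusted p = 0.00577). Nr4a2 (Nurr1) read 0.86, 0.62 and 0.90 FPKM in control, 1.30, 1.17 and 0.81 in BMC and 2.08, 2.29 and 2.17 with ultrasound. Its log2 change in BMC against control was 0.54 and was not called (SE 0.21, edgeR adjusted p = 0.0578). Of 21 alternatives 2 called Nr4a2 there. Without BMC library 3, the lowest, the log2 change was 0.70 and called (edgeR adjusted p = 0.0176). Without control library 2 it was 0.38 and without BMC library 1 0.41, neither called (edgeR adjusted p = 0.229 and 0.198). Against control, Nr4a2 rose 2.89-fold in BMC+LIPUS (log2 change 1.53, SE 0.20, edgeR adjusted p = 1.25e-05).

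Nr4a3 (NOR1) was the least abundant. It had 1, 3 and 1 counts in the control libraries, 10, 11 and 11 in BMC and 30, 25 and 28 with ultrasound. The 3 groups did not overlap. In FPKM these were 0.01, 0.03 and 0.01, then 0.12, 0.13 and 0.14, then 0.33, 0.33 and 0.34. Depth-scaled group totals gave ratios of 7.18 for BMC against control (95% exact interval 2.78 to 23.6), 2.60 for BMC+LIPUS against BMC (1.71 to 4.03) and 18.6 for BMC+LIPUS against control (7.68 to 58.9). These intervals cover counting error only. Nr4a3 did not pass the FPKM filter and is given no test. It reaches a mean of 10 counts, a filter added after seeing the data, only through the BMC+LIPUS libraries, so its fitted log2 changes are descriptions: 2.76 (SE 0.52) in BMC against control and 4.12 (SE 0.44) in BMC+LIPUS against control.

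BMC+LIPUS was set against BMC to ask what ultrasound adds on the membrane. The largest shifts among the 9 genes were those of the NR4A receptors, but none of the 8 tested genes was called by edgeR at an adjusted p under 0.05, where 0.0916% of genes, 11 of 12012, were called higher and 0.108% in either direction. At an unadjusted p under 0.05, 3 of the 8 were higher, Nr4a1, Nr4a2 and Nab2, against 6.31% of all genes, and DESeq2 called 1 while limma called 0. The median log2 change of the 8 was 0.10, against -0.00 over all genes. All BMC+LIPUS libraries lay above all BMC libraries in 5 of the 9 genes, which held for 7.75% of genes tested, and 8.07% lay apart in the other direction. The 5 were the 3 NR4A genes, of which Nr4a3 is not among the genes tested, Nab2 and Egr2, and in Egr2 only by 24.17 against 24.14 FPKM.

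Nr4a2 came closest to a call. Its mean went from 1.09 ± 0.254 to 2.18 ± 0.105 FPKM (SD, n = 3), a fitted 1.99-fold difference (log2 change 0.99, SE 0.19, edgeR adjusted p = 0.0541). Of the 12012 genes, 17 had an unadjusted p this small, Nr4a2 included. DESeq2 called it (adjusted p = 0.00322) and so did robust estimation in edgeR (adjusted p = 0.0248), whereas limma on log2(FPKM + 1) gave 0.185 and edgeR without any one library gave 0.0614 to 0.207. In all, 5 of 21 alternatives called it. The log2 change of Nr4a1 was 0.50 (SE 0.17, edgeR adjusted p = 0.262), and no alternative called it. The fitted value of Nr4a3, likewise with no test, was 1.36 (SE 0.31). Summed FPKM of the 3 receptors was 2.40 to 2.53 in control, 2.33 to 3.54 in BMC and 4.83 to 5.08 in BMC+LIPUS.

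The EGR side moved little with ultrasound. Log2 changes were 0.06 for Egr1 (SE 0.18), 0.13 for Egr2 (SE 0.12) and 0.06 for Egr3 (SE 0.17), with edgeR adjusted p of 0.939, 0.729 and 0.925. Those of Nab1 and Srf were -0.01 (SE 0.06) and 0.07 (SE 0.09). Nab2 read 39.11, 39.48 and 39.42 FPKM in BMC+LIPUS, all above its BMC libraries, at a log2 change of 0.18 (SE 0.06, edgeR adjusted p = 0.262). With standard errors of this size, small differences in the EGR genes could not have been detected, and a p above the threshold does not show that they were equal. Whether the NR4A and EGR responses to ultrasound differ was not tested.

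In BMC+LIPUS against control, which shares the controls of the first comparison, all 8 tested genes rose by edgeR, where 21.1% of genes were called higher, 21.9% lower and 43.0% in either direction. In all 9, the untested Nr4a3 included, every BMC+LIPUS library lay above every control library. That held for 19.6% of genes tested, and 31.3% lay apart in the other direction. The split over all genes was 2529 higher and 2631 lower by edgeR, 1869 and 3204 with library totals and 1674 and 3019 by limma on log2(FPKM + 1). Among the 8 tested, fold changes ran from 1.29 in Srf to 6.33 in Egr2, with Nab2 at 2.70-fold, Egr1 at 2.68-fold, Egr3 at 1.9-fold and Nab1 at 1.45-fold. Since the genes were chosen with earlier results of these data known, these shares describe the set and do not test it.

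Libraries within a group also differed in the mean log2 CPM of 4 osmotic stress genes, Slc5a3, Akr1b3, Slc6a12 and Hspa4l, a score chosen in earlier work on these data. It was 6.77, 6.45 and 6.66 in control, 6.91, 7.53 and 8.27 in BMC and 8.11, 7.30 and 8.68 with ultrasound. Within BMC, Nr4a1 and Nr4a2 were lowest in the library with the highest score, where Nr4a3 (0.14 FPKM) and Egr1 (3.30 FPKM) were highest. Within BMC+LIPUS, Nr4a1 was highest at the highest score (2.57 FPKM) and lowest at the lowest score (2.31 FPKM). Nr4a2 was highest there at the lowest score (2.29 FPKM), and the NR4A sum was 4.83 to 5.08 FPKM. With the score as a covariate, the log2 change of Nr4a2 was 0.69 in BMC against control (edgeR adjusted p = 0.0362) and 1.08 in BMC+LIPUS against BMC (edgeR adjusted p = 0.00226). Egr1, Egr2, Egr3, Nab1, Nab2 and Srf kept their calls in BMC against control in that fit. Every membrane library scored above every control, so the fit cannot tell the membrane and the score apart in comparisons with control. Of the 4 score genes 3 rose in BMC against control, Slc6a12 at 1.98-fold, Hspa4l at 2.5-fold and Akr1b3 at 2.06-fold, and none was called in BMC+LIPUS against BMC.

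**Figure D3:**
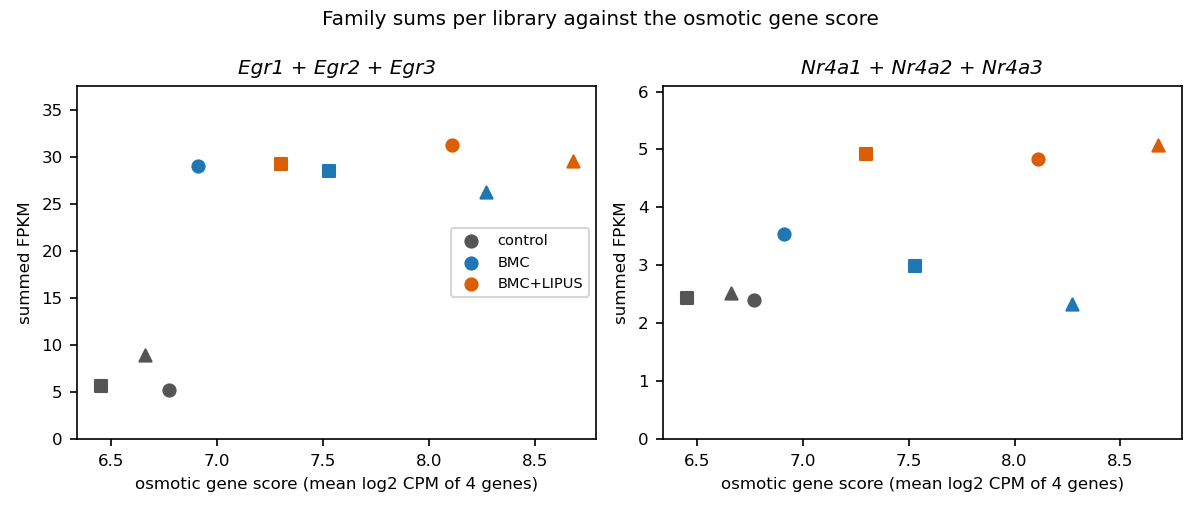
Summed FPKM of the EGR genes (left) and NR4A genes (right) in each library (y axis, from 0) against the osmotic score, the mean log2 CPM of 4 genes (x axis); colours are groups and symbols the library numbers 1 (circle), 2 (square) and 3 (triangle). EGR sums are 26.3 to 31.3 in all 6 membrane libraries, and NR4A sums are 2.33 to 3.54 in BMC and 4.83 to 5.08 in BMC+LIPUS over overlapping ranges of the score.

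Genes upstream of the EGR factors are read against the shares of all genes called on the membrane, which were 17.2% higher and 18.8% lower. Of 5 tested SRF cofactors (7 listed) 1 rose and 2 fell in BMC against control, with a median log2 change of 0.00. Elk4, an ETS partner of SRF, rose 1.16-fold, while the ETS repressor Elk3 was 1.25-fold lower and the actin-regulated coactivator Mrtfa 1.23-fold lower. Of 13 tested ERK cascade genes (15 listed) 3 rose and 2 fell, close to those shares, with a median of 0.01. The kinase gene Braf rose 1.77-fold and Rps6ka1 1.16-fold, while the histone and CREB kinase Rps6ka5 (MSK1) was 2.00-fold lower. No gene of either list was called with ultrasound added to the membrane. The median log2 changes there were 0.23 for the SRF cofactors and -0.01 for the ERK cascade, against -0.00 over all genes.

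Genes reported as targets of these factors were followed next, in BMC against control. Of 9 tested EGR targets (16 listed) 7 rose and 1 fell, where 17.2% of all genes were called higher and 18.8% lower, with a median log2 change of 0.72. Pdgfb, a growth factor subunit, rose 2.14-fold, the cell cycle inhibitor Cdkn1a 1.73-fold and the adhesion molecule Icam1 1.65-fold, whereas Id3 was 1.40-fold lower. Of 18 tested SRF and MRTF targets (24 listed) 9 rose and 1 fell against the same shares, with a median of 0.18. Cytoskeletal Actg1 rose 1.64-fold, Tpm4 1.54-fold and Tpm1 1.41-fold, and Tagln2 was 1.18-fold lower. No gene of either list was called in BMC+LIPUS against BMC, where the medians were -0.03 and 0.01.

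The partners and regulators of the NR4A genes were examined in the same way. Of 9 tested partners and coregulators (10 listed) 1 rose and 3 fell in BMC against control, where 17.2% of all genes were called higher and 18.8% lower, with a median of 0.03. Rxra, a heterodimer partner of Nur77 and Nurr1, was 1.88-fold lower, going from 6.35 ± 0.276 to 3.24 ± 0.10 FPKM (SD, n = 3). The coactivators Ncoa2 and Ncoa3 were 1.31-fold and 1.27-fold lower, and the corepressor Rcor1 rose 1.15-fold. Of 7 tested MEF2 factors and class IIa deacetylases (9 listed) 3 fell and 0 rose, with a median of -0.19. These were the deacetylases Hdac9, Hdac5 and Hdac4, which hold MEF2 in check, at 2.01-fold, 1.76-fold and 1.43-fold lower.

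Of the 8 CREB factors and coactivators, all tested, 4 rose and 0 fell in BMC against control, where 17.2% of all genes were called higher and 18.8% lower, with a median of 0.15. Crem, which encodes cAMP-inducible repressors, rose 1.9-fold, Crtc2, a calcium- and cAMP-gated coactivator, 1.30-fold and the acetyltransferase Crebbp 1.21-fold. Of 8 tested CREB target genes (11 listed) 4 rose and 1 fell, with a median of 0.51. The clock gene Per1 rose 1.96-fold, Fosl2 1.69-fold and the cAMP phosphodiesterase Pde4b 1.53-fold, and Amd1 was 1.19-fold lower. No gene of either CREB list was called in BMC+LIPUS against BMC, and the medians were 0.10 and 0.33. Crem had the largest of these shifts among the genes named, at a log2 change of 0.51 (SE 0.15, edgeR adjusted p = 0.193), from 1.74 ± 0.206 to 2.47 ± 0.224 FPKM.

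Of 34 other immediate early genes tested (35 listed) 24 rose and 3 fell in BMC against control, where 17.2% of all genes were called higher and 18.8% lower, with a median log2 change of 0.58. Ptgs2, the inducible prostaglandin synthase, rose 5.28-fold, the calcineurin regulator Rcan1 3.67-fold and the repressor Nfil3 2.71-fold. Klf4 and the AP-1 subunit Fos, also an SRF target, were 2.84-fold and 1.95-fold lower. With ultrasound added to the membrane 2 of the 34 rose and 0 fell, where 0.0916% of all genes were called higher. These were Rcan1 at 1.42-fold (edgeR adjusted p = 0.00395) and the kinase gene Plk3 at 1.49-fold (edgeR adjusted p = 0.0448). Both calls were lost in limma on log2(FPKM + 1) or log2(FPKM + 0.1) and in edgeR without BMC+LIPUS library 1, where no gene was called. The list was chosen with earlier results of these data known, so its shares describe it and do not test it.

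The genes most like each member over the 9 libraries were found by Pearson's r of log2 CPM among 7230 or 7231 genes whose mean reached 5 FPKM. Libraries of all 3 groups enter, so r reflects differences between groups as well as within them. Each r is the highest among all these candidates over only 9 libraries and is given as a description. The closest gene was Ehd1 for Egr2 (r = 0.996), Tnfsf9 for Egr1 (0.988), Imp4 for Egr3 (0.975), Hcls1 for Nab2 (0.997), Atp6ap2 for Nab1 (0.995) and Samd4b for Srf (0.961). Ehd1, an endocytic recycling gene, went from 20.9 to 59.0 FPKM in BMC and 60.0 in BMC+LIPUS. For Nr4a1 it was Cln8 (0.967), at 16.7, 16.4 and 17.1 FPKM in control, BMC and BMC+LIPUS. For Nr4a2 it was Cyth2 (0.980), at 10.2, 11.2 and 13.3 FPKM in the same order.

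**Figure D4:**
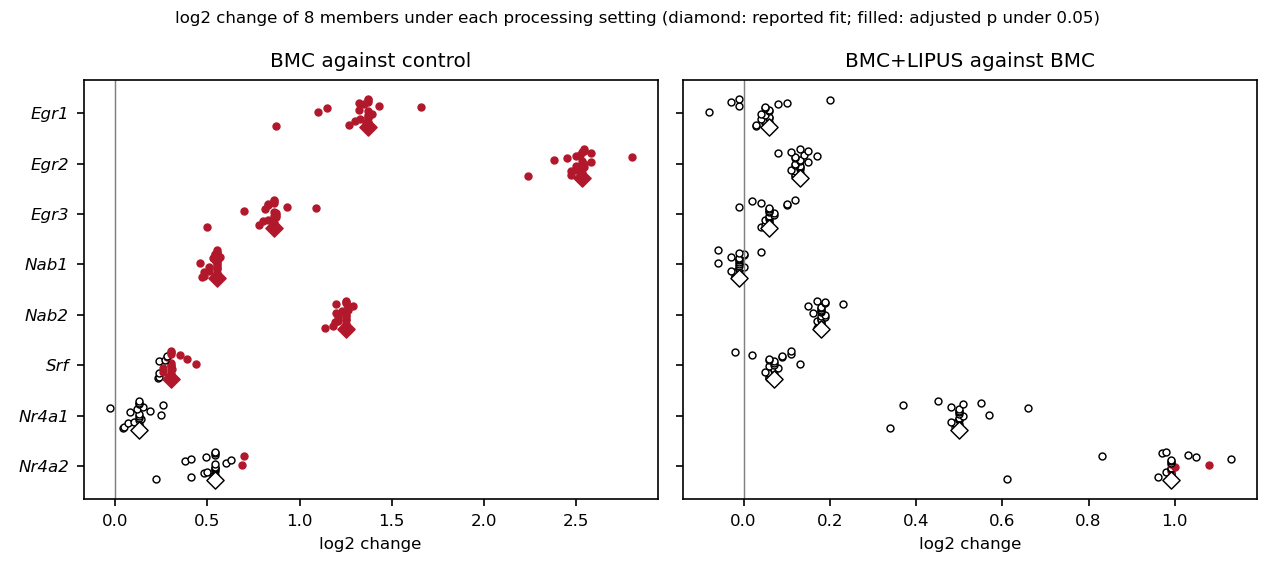
Log2 change (x axis, own range in each panel) of the 8 tested genes under every processing setting in BMC against control (left) and BMC+LIPUS against BMC (right); the diamond is the reported edgeR fit, circles are the alternatives, and filled symbols had an adjusted p under 0.05. On the left Egr2 runs from 2.24 to 2.80 and is filled throughout; on the right Nr4a2 runs from 0.61 to 1.13 and is filled in 5 of 21 alternatives.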

How the data were processed

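Polyadenylated RNA of 9 libraries was read from 1 table. Per the submitters' processing notes, the build was GRCm39 and the tools were HTSeq 0.6.1, HISAT2 2.0.1, cutadapt 1.9.1 and DESeq2. Neither annotation nor strand setting is given in the sources used here, so reads of overlapping antisense genes cannot be told apart. Whole, unnormalized counts per gene were deposited. FPKM values, scaled by the authors for length and depth and given to 2 decimals, were deposited beside them. Of 56691 lines, 2639 carry no gene name (0.0889% to 0.0976% of counts) and entered neither library sizes nor tests. For 77 names on several lines the line with the highest mean count was kept. The table has 6 columns of 3 further libraries that match no sample label, which were not used.

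Groups come from the sample titles. The test was edgeR 4.0.16 (R 4.3.3; TMM factors, glmQLFit and glmQLFTest, 3 group means over 9 libraries, Benjamini-Hochberg) on 12012 genes whose mean reached 0.5 FPKM. SEs were derived from the F statistic, and the fit was tested on simulated data. Every adjusted p not credited to limma 3.58.1 or DESeq2 1.42.0 is from edgeR. Log2 CPM used a prior count of 2. Members and lists were chosen with earlier results of these data known. Named genes were, per list, the 3 called genes with the smallest p in BMC against control, up to 2 that moved against the list, and up to 2 called in BMC+LIPUS against BMC. One gene that this rule names is not reported here. The alternatives were other scalings, filters, tools, pseudocounts (1 and 0.1), covariates, subsets and leaving out each library. The median SE over all genes was 0.0952, 0.0962 and 0.0951 in the 3 comparisons.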

Additional observations from a re-analysis of the deposited data

How the results depend on the processing

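Of 519 values of single members recomputed under up to 22 alternatives, 494 kept direction and side of the threshold, 8 lost a call (all Srf), 7 gained one (all Nr4a2) and 10 changed sign, none of them called. In BMC against control, Nr4a1 ran from -0.03 to 0.26 without single libraries. In BMC+LIPUS against BMC, Egr1 ran from -0.03 to 0.20 without single libraries and was -0.08 with the osmotic score as a covariate, while without single libraries Egr3 ran from -0.01 to 0.12, Nab1 from -0.06 to 0.04 and Srf from -0.02 to 0.11. The cause was not tested. In that comparison 1 member was called higher with DESeq2, without a filter, with the replicate block, with the osmotic score and with robust estimation, each time Nr4a2. In BMC+LIPUS against control 4 members were called with a minimum of 5 FPKM, which leaves 4 of them in the test. Over all genes, calls in BMC+LIPUS against BMC numbered 0 with limma at either pseudocount (1275 and 1251 genes at an unadjusted p under 0.05), 77 with DESeq2, 236 without a filter, 8 with a minimum of 5 FPKM, 8 with a mean of at least 10 counts, 2 with only the 6 libraries compared, 51 with the replicate block, 221 with the osmotic score and 44 with robust estimation, against 13 as reported. Leaving out 1 library gave 0 (without BMC+LIPUS replicate 1) to 47 (without BMC replicate 3). In BMC+LIPUS against control 2809 genes were called with the osmotic score, against 5160. Library numbers in the titles are shared across groups, but same-numbered libraries did not deviate together (r of deviations from group means -0.06 to 0.21), so the numbers were not taken as a pairing. With the replicate block Nr4a2 had a log2 change of 1.00 in BMC+LIPUS against BMC (edgeR adjusted p = 0.0370). Counts of 1 to 30 a library limit Nr4a3.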
